A study of Mus musculus with 24 samples.

Results

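The agonist cpd1324 was compared with vehicle in mpkCCD cells whose zinc receptor gene Gpr39 had been edited, the knockout (KO) cells of the study. The comparison gives the differences in transcripts between agonist and vehicle in cells whose gene for the intended receptor had been edited. It took the 6 libraries of KO cells given agonist (KO_agonist) and the 6 given vehicle (KO_vehicle), 12 of the 24 libraries in the series, chosen by their labels alone. mpkCCD is an established mouse cell line of kidney collecting duct epithelium from the cortex. KO_agonist cells received 1 µM cpd1324 together with 10 µM ZnCl2, and KO_vehicle cells received 0.1% DMSO with the same 10 µM ZnCl2, so zinc was present in both groups. Exposure lasted 2 h from the basolateral side, after 9 days on transwell inserts in medium lacking dDAVP, a vasopressin analogue, and 24 h in simple medium. Poly(A) RNA was sequenced. The other 12 libraries came from wild-type (WT) cells given the same agents in the same way, and are used here only to ask whether an effect seen in KO cells differed from that in WT cells.

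GPR39 is a G protein-coupled receptor that zinc activates and that can signal through phospholipase C, calcium and cAMP. In studies of an agonist, cells without a working receptor show which effects of the compound do not need that receptor. Principal cells of the collecting duct take up water through the channel AQP2, which vasopressin moves to the apical membrane.

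The labels do not say how many KO clones were used, which part of Gpr39 was edited, or whether the 6 libraries of a group were separate cultures. Every p-value below therefore measures only the spread between these libraries, which may be technical. The numbering of the libraries follows the groups, and an effect of order cannot be told apart from one of treatment. Gpr39, on chromosome 1, stood at 8.52 to 10.4 scaled units with a median of 9.25 in KO_vehicle and at 8.20 to 10.6 with a median of 9.22 in KO_agonist. The groups overlapped, and the log2 fold change was 0.00 ± 0.06 (SE, n = 6 per group; adjusted p = 0.985). KO libraries still held 387 to 704 reads of Gpr39, so the absence of a working receptor was not shown. A scaled unit is the deposited value, a normalised read count divided by gene length, multiplied by 1 constant for the whole table, so levels of different genes can be set side by side per length.

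Recovered reads numbered 40.3 ± 8.25 M (SD, n = 6) in KO_vehicle and 36.2 ± 3.60 M in KO_agonist, with a range of 29.8 to 51.9 M. Several markers of the labelled cell type were present in all 12 libraries: Aqp2 at 49.4 to 107 scaled units, the vasopressin receptor gene Avpr2 at 79.6 to 138, the sodium channel subunit gene Scnn1a at 252 to 352, and the epithelial genes Epcam at 566 to 670 and Cdh1 at 923 to 1089. Aqp3 (4.74 to 10.7), Scnn1b (1.42 to 3.12) and Elf5 (2.27 to 5.87) were low. The collecting duct factor gene Gata3 and the keratin gene Krt8 had no single row of that name, so no value is given. Of 22 listed principal cell genes 17 were tested. Among markers of other kidney and stromal cells, 6 of 15 intercalated cell genes, 1 of 14 proximal tubule genes, 4 of 11 thick limb and distal tubule genes, 1 of 12 fibroblast genes and 2 of 15 endothelial and immune genes reached the level needed for a test. In sum over the tested markers, the intercalated genes stood at 553 to 577 scaled units in KO_vehicle and 468 to 583 in KO_agonist, and the fibroblast gene at 0.631 to 1.21 and 0.828 to 1.77.

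KO libraries did not all follow their labels. KO_vehicle 6 stood apart from the other 11 on the first principal component, and the library labelled KO_agonist 2 lay beside the vehicle libraries on the second, at 6.29 where the other agonist libraries lay between −13.57 and −5.71. KO_vehicle 6 lay at −7.67 there, among the agonist libraries. A position scale was then set over the 2623 genes called without these libraries, with 0 at the mean of the other vehicle libraries and 1 at that of the other agonist libraries. KO_vehicle 1 to 5 fell between −0.07 and 0.06 and KO_agonist 1, 3, 4, 5 and 6 between 0.87 and 1.15, as the choice of genes made sure. KO_agonist 2 fell at 0.27 and KO_vehicle 6 at 0.40, both nearer to the vehicle mean. Whether a label or sample was mixed up could not be settled from the files, and this doubt touches every group value below. The groups are reported as labelled, and counts of calls without this pair are given where they differ by over 1.5 times. The pair was picked by its place in these data, so leaving it out favours more calls. Over all tested genes the omission gave 10.8% higher and 11.9% lower, the shares to set beside each list count without the pair.

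**Figure D1:**
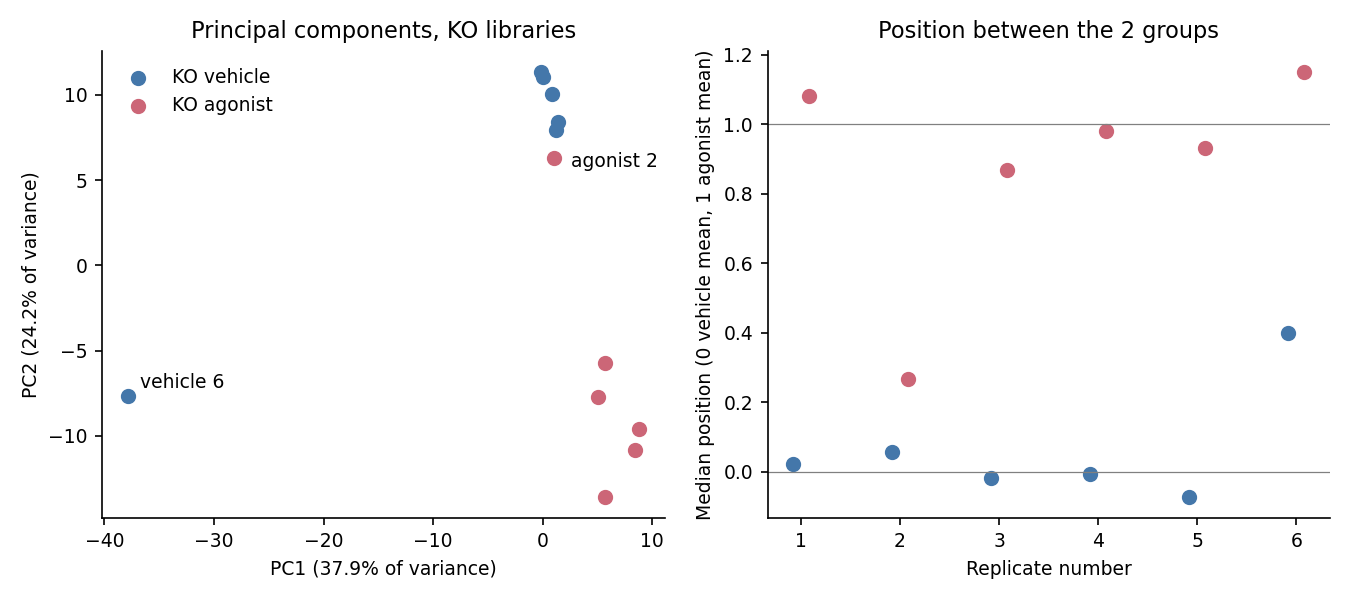
Principal components of the 12 KO libraries (left, first and second component with their share of the variance) and the median position of each library between the vehicle mean (0) and the agonist mean (1) over 2623 genes (right), by replicate number. Each point is a library, blue for KO_vehicle and red for KO_agonist. KO_vehicle 6 lies far to the left, and KO_agonist 2 lies among the vehicle libraries on the second component and at 0.27 on the position scale.

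With agonist, 539 of 11557 tested genes rose in KO cells (4.66%) and 536 fell (4.64%), at an adjusted p below 0.05 in limma. Together these calls made up 9.3% of the tested genes. The 4.66% and 4.64% are the shares to set beside each list count below, and a count near them is no result about a list. The changes were small. The median log2 fold change was 0.29 among the genes that rose and −0.24 among those that fell, 49 rose and 32 fell by at least 1.5-fold, and 5 rose and 1 fell by at least 2-fold. An unadjusted p under 0.05 was reached by 3234 genes. All 6 agonist libraries lay above all 6 vehicle libraries for 295 genes (2.55%) and below them for 228 (1.97%), 523 genes in all (4.53%), and 387 genes (3.35%) were both called and free of overlap.

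These counts changed much when single libraries were left out. Without KO_agonist 1 the calls fell to 156 higher and 128 lower, and without KO_agonist 2 they came to 897 and 954. They were 316 and 273 without KO_agonist 3, 234 and 195 without KO_agonist 4, 258 and 223 without KO_agonist 5, and 240 and 201 without KO_agonist 6. They were 342 and 321 without KO_vehicle 3, 313 and 297 without KO_vehicle 5, and 769 and 812 without KO_vehicle 6. Without KO_vehicle 6 and KO_agonist 2 together, 1244 genes were higher (10.8%) and 1379 lower (11.9%). In all, 246 of the 1075 calls, 140 higher and 106 lower, held without each of the 12 libraries in turn, and such a call is described below as held. When all libraries were brought to 1 common total, 643 genes were higher and 318 lower, so the balance of the directions depended on the scaling. None of the 1075 calls changed sign under any setting tried.

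The broadest change was in genes of mitosis, the division of the replicated chromosomes between daughter cells. Of 71 tested genes 55 rose and 0 fell, and their log2 fold changes had a median of 0.45 against −0.01 over all tested genes. Without overlap between the groups, 34 of the 71 were higher. The summed level of the list was 2788 to 3404 scaled units in KO_vehicle and 3489 to 4345 in KO_agonist, so the groups did not overlap. These are bulk libraries, in which more cells of a kind and more RNA per cell cannot be told apart. The number of calls was 35 and 34 without KO_vehicle 4 and 5, and 21, 25, 33 and 33 without KO_agonist 1, 4, 5 and 6, and 20 of the 55 calls held.

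Regulators of mitotic entry and exit came first in this list, with 14 of 15 cyclins, kinases and phosphatases higher. Plk1, the Polo-like kinase that drives mitotic entry and spindle assembly, ran from 27.9 to 38.0 scaled units with a median of 31.4 in KO_vehicle and from 39.9 to 62.4 with a median of 52.1 in KO_agonist. The groups did not overlap, although KO_vehicle 6 was the highest vehicle library and KO_agonist 2 the lowest agonist library. The log2 fold change of Plk1 was 0.69 ± 0.18 (adjusted p = 0.0207), and the call was lost without KO_agonist 1 (adjusted p = 0.0575). Ccna2, which encodes cyclin A2, ran from 49.5 to 85.1 with a median of 61.6 under vehicle and from 83.2 to 116 with a median of 94.3 with agonist. Its groups overlapped through the same pair of libraries, and it rose by 0.63 ± 0.14 (adjusted p = 0.0142). Bub1b, a kinase of the spindle checkpoint, ran from 39.97 to 47.5 (median 41.8) and from 52.0 to 73.0 (median 65.0) without overlap and rose by 0.58 ± 0.13. Cdc25b, a phosphatase that activates cyclin-dependent kinases, rose from 58.0 ± 3.36 to 77.3 ± 6.01 (SD, n = 6 per group), by 0.41 ± 0.09. The last of these differed from WT cells, where Cdc25b stood at 0.05 ± 0.09 (interaction adjusted p = 0.0209). The calls of Ccna2, Bub1b and Cdc25b held.

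Chromosome and spindle genes moved in the same direction. Of 12 centromere and kinetochore genes 8 rose, of 18 spindle motor and microtubule genes 14, of 15 chromosome structure genes 11, and of 7 tested genes of anaphase and cytokinesis 6. Cenpa, the histone variant that marks centromeres, ran from 16.9 to 23.3 scaled units (median 22.6) in KO_vehicle and from 29.2 to 37.1 (median 33.8) in KO_agonist. No agonist library overlapped a vehicle library, and Cenpa rose by 0.65 ± 0.11 (adjusted p = 0.00732). The kinetochore genes Cenpf (0.55 ± 0.11) and Cenpe (0.53 ± 0.12), the spindle pole gene Aspm (0.63 ± 0.13), the microtubule depolymerase gene Kif2c (0.64 ± 0.14) and the separase gene Espl1 (0.63 ± 0.13) rose as well. So did the DNA topoisomerase gene Top2a (0.56 ± 0.12), Cdca8 of the chromosomal passenger complex (0.48 ± 0.12) and the scaffold gene Iqgap3 (0.58 ± 0.11). With Cenpa, these 9 calls held. Cdc20, an activator of the anaphase-promoting complex, rose by 0.49 ± 0.13, but not without KO_agonist 1 or 4, where its highest adjusted p was 0.0640. Racgap1, which acts in cytokinesis, rose by 0.36 ± 0.10, but not without KO_vehicle 4 or 5 or KO_agonist 1, 4 or 6, with an adjusted p of up to 0.0697.

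The transcription factors that drive this programme were in the list too. Mybl2 ran from 37.5 to 42.2 scaled units (median 39.7) in KO_vehicle and from 47.4 to 62.5 (median 58.3) in KO_agonist, without overlap, and rose by 0.50 ± 0.12 (adjusted p = 0.0155), a call that held. Foxm1 ran from 20.1 to 24.1 (median 21.5) and from 23.6 to 33.3 (median 30.9). Its groups overlapped through KO_vehicle 6 and KO_agonist 2, and its rise of 0.46 ± 0.12 was not called without KO_agonist 1, 4 or 6 (adjusted p of up to 0.0626). The 12 largest rises picked from called genes without overlap held, beside Plk1, Gtse1, a microtubule-binding protein (0.68 ± 0.16), and the helicase gene Pif1 (0.70 ± 0.15). They also held Sapcd2 (0.69 ± 0.15), which takes part in spindle orientation. For these 12, and for the 12 largest falls picked likewise, the lack of overlap came from the choice.

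Mitotic genes rose in WT cells as well. Of the 71 genes 55 were called higher there, 46 of them also in KO cells, and the interaction was called for 3 of 71, where it was called for 41.1% of all tested genes. The median log2 fold change was 0.45 in KO cells and 0.35 in WT cells. A difference between the genotypes that misses the threshold does not show that the effects were alike.

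Promoters of mitotic genes often hold a CCAAT box, bound by NF-Y, and a cell cycle homology region (CHR) near the start site, where the MuvB complex with MYBL2 and FOXM1 is known to act. Cenpa and Iqgap3, the called members with the smallest adjusted p, and Aspm, which tied for the next place with Cdc25b, Cenpf and Espl1 and was taken in order of gene symbol, are shown as 300-base windows in the direction of the gene, 250 bases before the start site to 50 after it, with matches to the letters TTTGAA (CHR) and CCAAT on either strand in capitals. The sequences are from RefSeq, build GRCm38.p6, on the plus strand: Cenpa at chr5:30666636-30666935, Iqgap3 at chr3:88081801-88082100 and Aspm at chr1:139454523-139454822.
Cenpa: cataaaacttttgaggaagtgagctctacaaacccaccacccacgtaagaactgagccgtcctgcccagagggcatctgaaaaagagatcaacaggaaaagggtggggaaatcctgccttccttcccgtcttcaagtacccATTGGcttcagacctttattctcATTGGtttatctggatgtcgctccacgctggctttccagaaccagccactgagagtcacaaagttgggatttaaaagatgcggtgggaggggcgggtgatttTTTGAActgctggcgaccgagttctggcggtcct
Iqgap3: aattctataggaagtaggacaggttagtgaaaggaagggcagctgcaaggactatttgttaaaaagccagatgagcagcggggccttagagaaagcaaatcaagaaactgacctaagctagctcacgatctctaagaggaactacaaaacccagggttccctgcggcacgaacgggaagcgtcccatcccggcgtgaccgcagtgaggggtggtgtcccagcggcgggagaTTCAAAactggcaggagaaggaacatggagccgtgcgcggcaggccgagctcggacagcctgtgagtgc
Aspm: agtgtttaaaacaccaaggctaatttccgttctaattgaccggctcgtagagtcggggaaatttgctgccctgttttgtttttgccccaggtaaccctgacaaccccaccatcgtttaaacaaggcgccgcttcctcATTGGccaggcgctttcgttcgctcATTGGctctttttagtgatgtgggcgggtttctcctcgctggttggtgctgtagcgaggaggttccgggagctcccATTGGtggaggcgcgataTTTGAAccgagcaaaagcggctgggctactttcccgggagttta
Cenpa held TTTGAA 17 bases after the start site, Iqgap3 held it 19 bases before and Aspm 7 bases after. CCAAT boxes lay 109 and 86 bases before the start of Cenpa and 113, 88 and 12 bases before that of Aspm. Across the list, TTTGAA was found in 41 of the 60 members with a window in the table (68.3%), in 34 of 46 called members (73.9%), and in 18.1% of 27025 genes. CCAAT was found in 43 of 60 (71.7%), 35 of 46 called (76.1%) and 37.9% of all genes. The related letters TTCGAA, which read the same on both strands and share no position with TTTGAA, were found in 6 of 60 (10.0%), 5 of 46 called (10.9%) and 1.57% of all genes. A match is a description of these letters, not a bound site, and members called and not called were not compared.

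**Figure D2:**
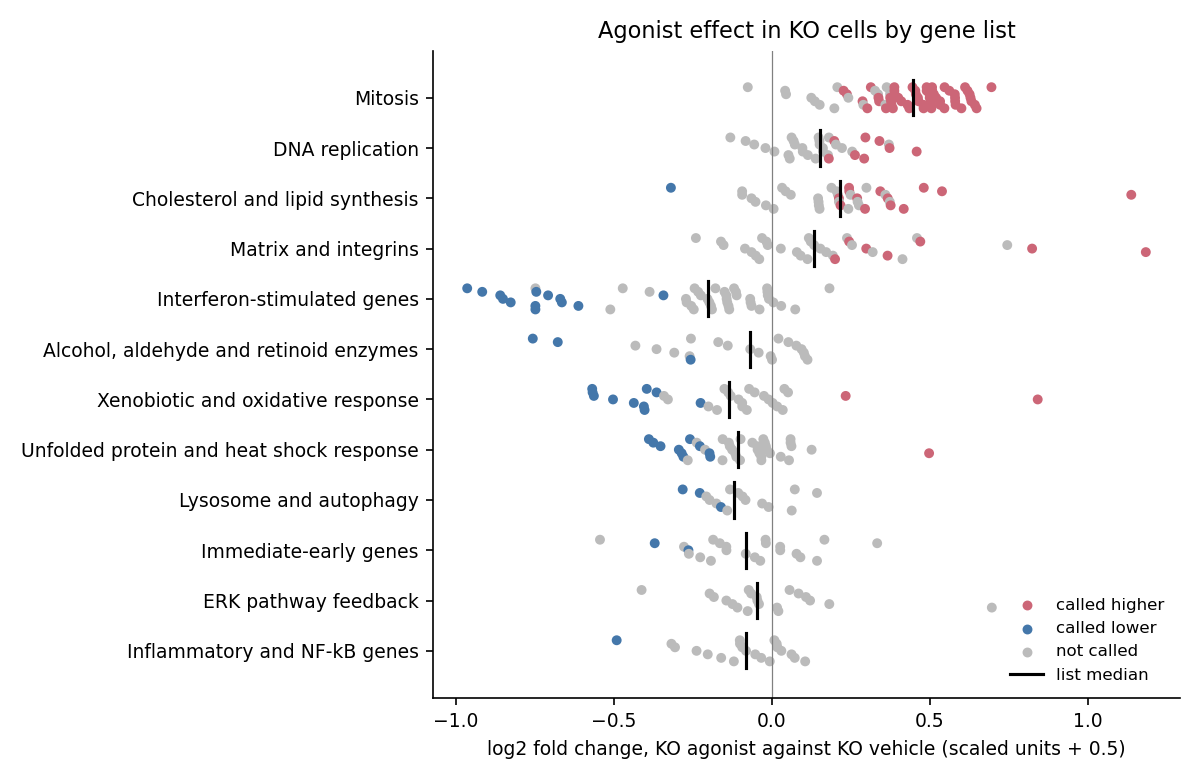
Log2 fold change of KO_agonist against KO_vehicle (horizontal axis, log2 of scaled units + 0.5) for the tested members of 12 gene lists. Each point is a gene, red where called higher, blue where called lower and grey where not called, and the black bar is the median of the list. The mitosis list lies to the right with a median of 0.45 and the interferon list to the left with a median of −0.20.

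Genes of DNA replication changed less. Of 33 tested genes 8 rose and 0 fell, with a median of 0.15, and 11 were higher without overlap. Tk1, a thymidine kinase, ran from 13.1 to 18.5 scaled units (median 16.4) in KO_vehicle and from 18.1 to 25.7 (median 23.2) in KO_agonist, and rose by 0.46 ± 0.13 with KO_agonist 2 within the vehicle range. Uhrf1, which guides maintenance of DNA methylation, rose by 0.37 ± 0.09 (adjusted p = 0.0188), the DNA polymerase subunit gene Pole by 0.34 ± 0.09 and Mcm10, an initiation factor, by 0.29 ± 0.09. Rrm1, a subunit of ribonucleotide reductase, rose by 0.20 ± 0.06, and the chromatin assembly gene Chaf1a by 0.26 ± 0.07. In WT cells Chaf1a stood at −0.07 ± 0.07, and the effects differed (interaction adjusted p = 0.00583). Of these calls only that of Uhrf1 held. Chaf1a lost it without KO_agonist 1, Pole without KO_agonist 1 or 6, Tk1 without 5 of the 12 libraries, Rrm1 without 7 and Mcm10 without 11. The list had 5 and 4 calls without KO_vehicle 4 and 5, and 1, 5, 4, 4 and 3 without KO_agonist 1, 3, 4, 5 and 6.

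Interferon-stimulated genes moved the other way. These antiviral genes are switched on by STAT and IRF factors, and many are also expressed at a low level in unstimulated cells. Of 50 tested genes 13 fell and 0 rose, the median change being −0.20 on the log2 scale, and 4 were lower without overlap. Of the 24 antiviral effectors 8 fell, of 5 ubiquitin-like modifier genes 2, of 3 GTPases 2, of 5 transcription factors 1, and of 7 sensors and 6 antigen presentation genes 0. The summed level ran from 1301 to 1783 scaled units in KO_vehicle and from 1190 to 1337 in KO_agonist, so the groups overlapped.

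Rtp4, which restricts viral replication, ran from 13.1 to 28.7 scaled units with a median of 16.9 in KO_vehicle and from 7.28 to 12.4 with a median of 8.81 in KO_agonist. The vehicle libraries were spread widely, with KO_vehicle 4 and 6 highest, but all lay above the agonist libraries. Its log2 fold change was −0.96 ± 0.20 (adjusted p = 0.00981), and the call held. Ifit3b, an interferon-induced tetratricopeptide protein, ran from 9.49 to 25.0 (median 17.3) and from 7.02 to 9.21 (median 8.44), without overlap, and fell by 0.92 ± 0.24 on the log2 scale. Its close relative Ifit1, which recognises viral RNA caps, ran from 17.8 to 41.4 (median 30.2) and from 12.8 to 19.1 (median 16.3), with KO_vehicle 3 and 5 inside the agonist range, and fell by 0.74 ± 0.19 (adjusted p = 0.0206). Ifit3b and Ifit1 lost the call without KO_agonist 1, at adjusted p-values of 0.0526 and 0.0575. Reads of these close relatives could be shared between them.

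Ube2l6, the conjugating enzyme for ISG15, ran from 70.2 to 80.0 scaled units (median 74.6) under vehicle and from 51.0 to 70.1 (median 57.3) with agonist. The groups met without overlapping at KO_vehicle 1 and KO_agonist 2, and Ube2l6 fell by 0.34 ± 0.08 (adjusted p = 0.0181), a call that held. Ifi44 fell by 0.75 ± 0.19, Usp18, which removes ISG15, by 0.67 ± 0.19, the GTPase gene Gbp2 by 0.66 ± 0.18 and the transcription factor gene Irf7 by 0.61 ± 0.16, all with overlap between the groups. These 4 calls were lost without KO_agonist 1 or 4, and in addition that of Gbp2 without KO_vehicle 1 or 4 and that of Usp18 without KO_vehicle 1 or 4 or KO_agonist 3 or 6. The list had 7 and 6 calls without KO_vehicle 1 and 4, and 2 and 4 without KO_agonist 1 and 4, and 2 of 13 calls held. With the replicate number as a block, in a fit of the KO libraries alone, 3 were called. In WT cells 37 of the 50 genes fell with agonist, 10 of them among the 13 of KO cells, and the interaction was called for 14.

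Ifit1 is shown with its matches to the core of the interferon-stimulated response element in capitals, which is GAAA, any pair of bases, then GAAA again. The window is from RefSeq, build GRCm38.p6, plus strand, chr19:34640639-34640938, and runs in the direction of the gene from 250 bases before the start site to 50 after it.
Ifit1: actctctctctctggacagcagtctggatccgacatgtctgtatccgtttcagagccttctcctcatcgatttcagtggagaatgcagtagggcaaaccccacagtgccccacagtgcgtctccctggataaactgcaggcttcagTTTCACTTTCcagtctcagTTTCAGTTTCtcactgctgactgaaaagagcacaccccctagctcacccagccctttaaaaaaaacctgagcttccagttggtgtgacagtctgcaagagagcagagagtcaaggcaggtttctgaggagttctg
The matches began 104 and 85 bases before the start site. These letters were found on either strand in 17 of 37 members with a window (45.9%), in 6 of 11 called members (54.5%) and in 3.49% of 27025 genes. The windows of Ube2l6 and Ifi44 did not hold them.

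Genes that make cholesterol and fatty acids, most of them targets of the sterol-sensing SREBP factors, rose in part. Of 38 tested genes 13 rose and 1 fell, the median change being 0.22 on the log2 scale, and 9 were higher without overlap. Scd1, the desaturase that makes monounsaturated fatty acids, ran from 20.2 to 37.4 scaled units (median 25.0) in KO_vehicle and from 32.3 to 77.4 (median 63.2) in KO_agonist. KO_agonist 2 was the lowest agonist library and lay within the vehicle range, which KO_vehicle 6 topped. Scd1 rose by 1.14 ± 0.27 (adjusted p = 0.0181), and without KO_agonist 1 the adjusted p was 0.0506.

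Fatty acid synthase, Fasn, ran from 106 to 125 scaled units (median 118) and from 130 to 170 (median 154), without overlap, and rose by 0.38 ± 0.07 (adjusted p = 0.00741). Acaca, the acetyl-CoA carboxylase of the preceding step, rose by 0.42 ± 0.09 without overlap. Both calls held. The regulator genes Srebf2 (0.22 ± 0.05) and Srebf1 (0.25 ± 0.07) rose, the former not without KO_agonist 1 (adjusted p = 0.0519) and the latter not without 5 of the 6 agonist libraries in turn, KO_agonist 2 being the exception. Mvd of the mevalonate pathway (0.48 ± 0.13) and the sterol enzyme gene Lss (0.37 ± 0.11) rose with calls that were lost without 4 and 10 libraries in turn.

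Mylip, a ligase that marks the LDL receptor for degradation, fell by 0.32 ± 0.10, but not without 8 of the libraries in turn. In WT cells it fell by 1.502 ± 0.10 on the log2 scale (interaction 1.18, adjusted p = 1.16e-07). The number of lipid genes called higher was 8 and 8 without KO_vehicle 3 and 4, 2, 5, 7 and 6 without KO_agonist 1, 4, 5 and 6, and 21 without KO_agonist 2, and 2 of the 13 calls held. It was 20 when all libraries were brought to 1 common total, 21 with quantile scaling and 22 without KO_vehicle 6 and KO_agonist 2. The letters TCACNCCAC of a sterol response element were found in 1 of 26 members with a window, 0 of 8 called members and 1.22% of 27025 genes, so none is printed.

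**Figure D3:**
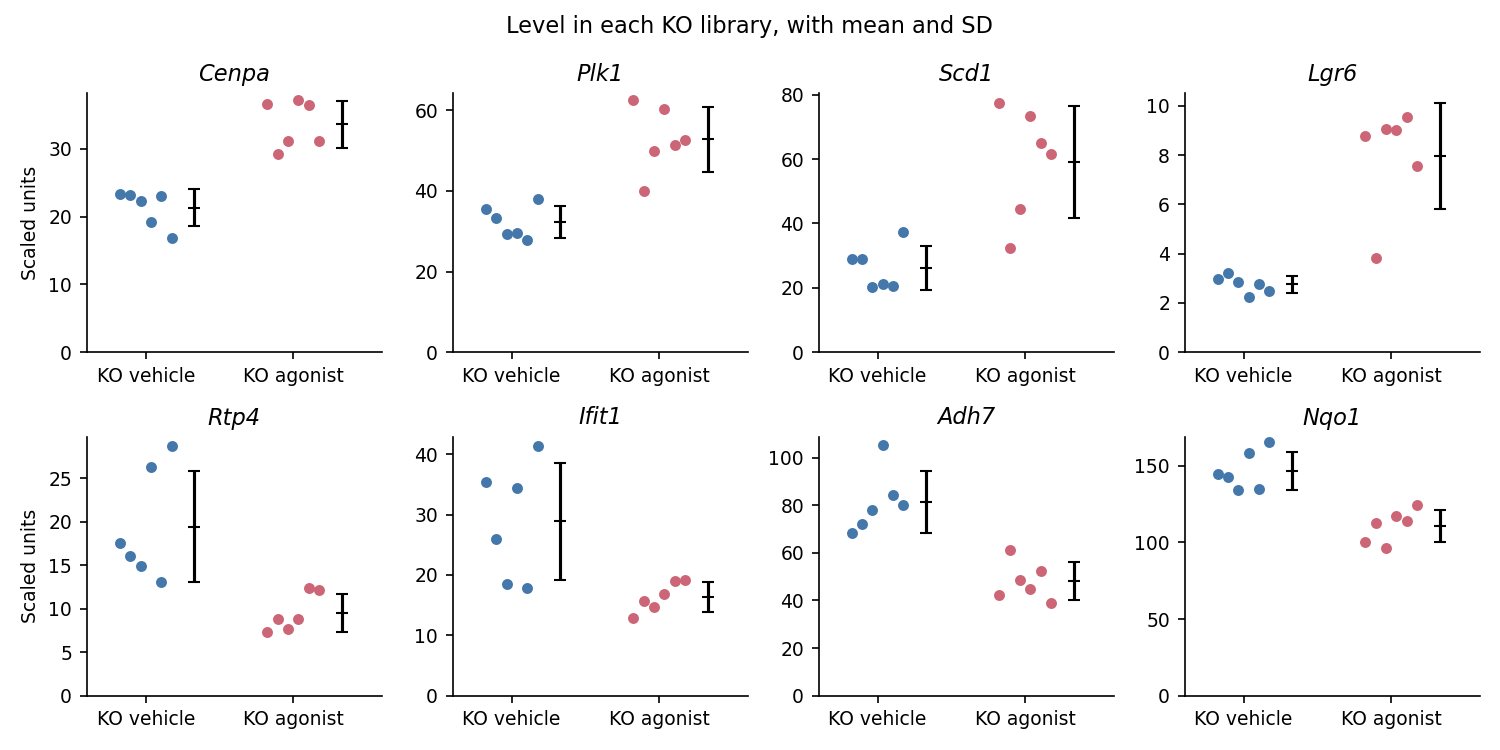
Level of 8 genes in scaled units (vertical axis from 0) in each KO library, blue for KO_vehicle and red for KO_agonist, in order of replicate number within a group, with the mean and SD (n = 6) as a black bar. Cenpa, Plk1, Scd1 and Lgr6 are higher with agonist and Rtp4, Ifit1, Adh7 and Nqo1 lower. The second agonist library is the lowest of its group for Cenpa, Plk1, Scd1 and Lgr6.

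The largest single rise was that of Lgr6, a receptor for R-spondins that strengthens Wnt signalling. It ran from 2.22 to 3.22 scaled units with a median of 2.81 in KO_vehicle and from 3.81 to 9.56 with a median of 8.90 in KO_agonist. The groups did not overlap, and 5 of the agonist libraries stood at 7.54 or above, with KO_agonist 2 at 3.81. The log2 fold change was 1.33 ± 0.24 (adjusted p = 0.00741), a call that held, and the gene had 92 to 387 reads per KO library. In WT cells Lgr6 rose by 0.67 ± 0.24, and the interaction was not called (adjusted p = 0.126). Of 18 tested genes of the Wnt and R-spondin pathway, the ligand gene Wnt10a also rose (0.49 ± 0.13) and the receptor gene Fzd4 fell (−0.37 ± 0.11), calls that were lost without 5 and 8 libraries in turn. The median of this list was 0.05, and without KO_vehicle 6 and KO_agonist 2 it had 4 genes higher and 3 lower. In the main fit 4.66% of all tested genes rose and 4.64% fell, so its small counts are no result about the list.

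Ak1, an adenylate kinase that balances adenine nucleotides, ran from 1.74 to 3.48 scaled units (median 2.45) and from 3.59 to 11.0 (median 6.87), without overlap, and rose by 1.26 ± 0.28 (adjusted p = 0.0119), a call that held. It was low, with 27 to 183 reads per library. Among 7 adenylate and creatine kinase genes tested it was the only call. Ggt1, which cleaves extracellular glutathione, ran from 3.34 to 6.11 (median 4.78) and from 7.35 to 12.1 (median 8.05) and rose by 0.84 ± 0.19, with KO_agonist 2 in the middle of its group, and held its call. Fmnl1, a formin that elongates actin filaments, rose by 0.80 ± 0.21 and lost the call without KO_agonist 1, 3, 4 or 5. Sh3pxd2b, an adaptor of podosomes, rose by 0.72 ± 0.14 and held. Foxj1, the master factor of motile cilia, rose from 4.01 ± 0.348 to 6.64 ± 1.19 (0.65 ± 0.17), but not without KO_agonist 1 or 5.

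Extracellular matrix genes were among the large rises too. Fbln2, a basement membrane fibulin, ran from 21.3 to 27.4 scaled units (median 23.8) in KO_vehicle and from 27.8 to 68.0 (median 63.6) in KO_agonist. No library overlapped, with KO_agonist 2 at 27.8 and the other agonist libraries at 50.9 or above. Fbln2 rose by 1.18 ± 0.34 (adjusted p = 0.0346). Sparc, a secreted collagen-binding protein, ran from 13.4 to 17.3 (median 15.7) and from 21.8 to 34.98 (median 28.0) and rose by 0.82 ± 0.24. Both lost their calls without KO_vehicle 3, 4 or 5 or any agonist library but KO_agonist 2, with adjusted p-values of up to 0.0782 and 0.0770. Among the 33 tested genes of matrix and integrins there were 7 rises and 0 falls (median 0.13), and 4 were higher without overlap. Over all tested genes 4.66% rose and 2.55% were higher without overlap. Itgb4, the integrin subunit of hemidesmosomes, ran from 48.6 to 62.0 (median 59.8) and from 64.7 to 88.2 (median 82.8), rose by 0.47 ± 0.09 (adjusted p = 0.00856) and was the 1 call of the list that held. The list had 2, 4 and 3 calls without KO_vehicle 3, 4 and 5, and 1, 3, 3, 1 and 2 without KO_agonist 1, 3, 4, 5 and 6. The perlecan gene Hspg2 (0.37 ± 0.09) and the laminin genes Lama5 (0.30 ± 0.09) and Lamc1 (0.20 ± 0.06) also rose, with calls lost without 2, 7 and 8 libraries in turn. The adhesion gene Jup, which encodes plakoglobin, rose by 0.21 ± 0.04 and held, the only call among 20 tight junction and adhesion genes, of which 3 were higher and 2 lower without KO_vehicle 6 and KO_agonist 2.

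Of 17 tested G protein signalling genes 2 rose in KO cells and 15 were not called. Over all tested genes 4.66% rose, so a count this small is no result about the list. Itpr3, an inositol trisphosphate receptor that releases calcium from the endoplasmic reticulum, ran from 47.2 to 52.5 scaled units (median 50.3) in KO_vehicle and from 58.4 to 88.7 (median 76.8) in KO_agonist. The groups did not overlap, and Itpr3 rose by 0.59 ± 0.09 (adjusted p = 0.00336). Plcb3, a phospholipase C, ran from 199 to 207 (median 202) and from 217 to 245 (median 237), without overlap, and rose by 0.21 ± 0.04 (adjusted p = 0.00704). Both calls held, and the median of the list was 0.02. The list had 3 genes higher and 2 lower without KO_vehicle 6 and KO_agonist 2. In WT cells Itpr3 rose by 0.43 ± 0.09 and Plcb3 stood at 0.02 ± 0.04, and the interaction was called for Plcb3 alone (adjusted p = 0.0045).

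Some enzymes that handle alcohols, electrophiles and foreign compounds fell with agonist, 3 of 21 tested in the alcohol, aldehyde and retinoid list and 10 of 32 in the xenobiotic list. Over all tested genes 4.64% fell. Adh7, an alcohol dehydrogenase that also oxidises retinol, ran from 68.2 to 105 scaled units with a median of 79.1 in KO_vehicle and from 39.0 to 61.2 with a median of 46.6 in KO_agonist. The groups did not overlap, with KO_agonist 2 the highest of its group, and Adh7 fell by 0.76 ± 0.12 on the log2 scale (adjusted p = 0.00446). Adh1 ran from 49.5 to 68.7 (median 59.5) and from 29.9 to 49.4 (median 37.3), met without overlapping at KO_vehicle 5 and KO_agonist 2, and fell by 0.68 ± 0.13. The aldehyde dehydrogenase gene Aldh3b1 fell by 0.26 ± 0.05 (adjusted p = 0.00741). These 3 calls held, 0 of the 21 genes rose and the median was −0.07. Leaving out KO_vehicle 6 and KO_agonist 2, 8 of the 21 were lower. Adh7 and Adh1 fell in WT cells too, by 1.14 ± 0.12 and 0.59 ± 0.13.

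Of 32 tested genes of the xenobiotic and oxidative response, many of them targets of NRF2, 10 fell and 2 rose, with a median of −0.13. Those that rose were Ggt1 and, named after its value was seen, the glutathione transferase gene Mgst3 (0.23). Nqo1, a quinone reductase and NRF2 target, ran from 134 to 165 scaled units (median 144) and from 96.1 to 124 (median 113), without overlap, and fell by 0.40 ± 0.07 (adjusted p = 0.00732). Cbr3, a carbonyl reductase, fell by 0.57 ± 0.11, Mgst1, a membrane glutathione transferase, by 0.50 ± 0.10 and Gsta4, another transferase, by 0.40 ± 0.08. All of these held. Gclc, the catalytic subunit of glutathione synthesis, fell by 0.36 ± 0.09, but not without KO_agonist 1 (adjusted p = 0.0533). Hmox1, the heme oxygenase, ran from 908 to 1765 (median 1327) and from 634 to 1173 (median 868), with wide overlap, and fell by 0.57 ± 0.17, a call lost without 9 libraries in turn. In WT cells Hmox1 rose by 1.59 ± 0.17 (interaction −2.15, adjusted p = 8.26e-08) and Gclc by 0.25 ± 0.09 (interaction −0.61, adjusted p = 0.000428). Outside the list, the sulfotransferase gene Sult1d1 fell by 0.52 ± 0.13, a call lost without KO_agonist 1 (adjusted p = 0.0595). The number of listed genes called lower was 6 without KO_vehicle 5 and 4, 5, 6 and 5 without KO_agonist 1, 4, 5 and 6.

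The deepest fall was that of Csn3, kappa-casein, a milk protein gene. It ran from 4.55 to 7.16 scaled units with a median of 6.14 in KO_vehicle and from 1.91 to 3.35 with a median of 2.07 in KO_agonist, without overlap. Its log2 fold change was −1.21 ± 0.22 (adjusted p = 0.00741), a call that held on 15 to 70 reads per library. In WT cells it rose by 1.61 ± 0.22, from a mean of 0.449 scaled units, under the 0.5 added before taking logs, to 2.22. The effects differed (interaction −2.82, adjusted p = 5.67e-08), with the WT part resting on levels near 0. Serpinb9b, of the clade B serpins, fell by 0.73 ± 0.12 and held, with −0.07 ± 0.12 in WT cells (interaction adjusted p = 0.00199). Nupr1, a stress-inducible chromatin protein, ran from 209 to 341 (median 231) and from 153 to 185 (median 167) and fell by 0.53 ± 0.12, with KO_vehicle 6 far above the other vehicle libraries, and held. Mlana (−0.58 ± 0.16), known from melanosomes, and the caspase gene Casp14 (−0.49 ± 0.13), known from skin, fell with calls lost without 3 libraries in turn, and ccdc198 (−0.55 ± 0.11) fell and held.

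Most stress response genes that rose in WT cells were not called in KO cells, and some fell. Of 40 tested genes of the unfolded protein, integrated stress and heat shock responses 10 fell and 1 rose in KO cells (median −0.11), where 37 rose in WT cells, and the interaction was called for 36. Atf4, the factor that drives the integrated stress response, ran from 911 to 1014 scaled units (median 949) in KO_vehicle and from 719 to 919 (median 785) in KO_agonist. Only KO_agonist 2 reached the vehicle range, and Atf4 fell by 0.28 ± 0.07 (adjusted p = 0.0203), where it rose by 0.95 ± 0.07 in WT cells. Its target Ppp1r15a, a phosphatase subunit that restores translation, ran from 155 to 204 (median 179) and from 115 to 159 (median 139), with overlap at KO_vehicle 2 and KO_agonist 2, and fell by 0.37 ± 0.08, against a rise of 2.29 ± 0.08. Herpud1, of endoplasmic reticulum-associated degradation, fell by 0.35 ± 0.08 without overlap, against a rise of 1.19 ± 0.08. Chac1, which degrades glutathione, and the amino acid transporter gene Slc3a2, an ATF4 target outside the list, fell by 0.28 ± 0.08 and 0.21 ± 0.06, against rises of 1.41 ± 0.08 and 1.01 ± 0.06. Xbp1 (−0.26 ± 0.08), the co-chaperone Dnajb9 (−0.39 ± 0.11) and the cytosolic chaperone Hsp90aa1 (−0.19 ± 0.05) fell as well.

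One heat shock gene went the other way. Hspb1, the small heat shock protein HSP27, ran from 58.6 to 72.1 scaled units (median 61.9) and from 57.2 to 109 (median 95.7) and rose by 0.50 ± 0.11 (adjusted p = 0.0142), with KO_agonist 2 below every vehicle library and the other agonist libraries above all of them. In WT cells Hspb1 rose by 1.99 ± 0.11 (interaction −1.49, adjusted p = 3.49e-08). The calls of Atf4, Ppp1r15a, Herpud1 and Hspb1 held, and those of Slc3a2, Dnajb9, Chac1, Hsp90aa1 and Xbp1 were lost without 5, 5, 6, 8 and 10 libraries in turn. The number of genes called lower in this list was 5, 6 and 5 without KO_vehicle 3, 4 and 5, and 4, 4, 3 and 4 without KO_agonist 1, 4, 5 and 6, while it was 15 without KO_vehicle 6. It was 19 without KO_vehicle 6 and KO_agonist 2 together.

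Few of the early genes that rose in WT cells were called in KO cells. Over all tested genes 4.66% rose and 4.64% fell in KO cells. The few calls of these lists in the main fit are therefore no result about a direction. Of 23 immediate-early genes, which growth signals switch on within minutes, 0 rose and 2 fell in KO cells (median −0.08), where 22 rose in WT cells. Fosl1, an AP-1 subunit, ran from 11.4 to 19.0 scaled units (median 14.9) and from 9.17 to 13.8 (median 11.7), with overlap, and fell by 0.37 ± 0.11 (adjusted p = 0.0437), a call lost without 8 libraries in turn. In WT cells it rose by 4.31 ± 0.11 (interaction −4.68, adjusted p = 6.55e-17). Of 20 ERK feedback genes 0 were called in KO cells (median −0.05) and 19 rose in WT cells. Of 21 inflammatory and NF-kB genes 1 fell (median −0.08): Csf1, a macrophage growth factor, ran from 39.5 to 56.9 (median 48.0) and from 30.1 to 41.9 (median 31.9), with overlap through KO_agonist 2, and fell by 0.49 ± 0.11 (adjusted p = 0.0112), a call that held, against a rise of 1.79 ± 0.11 in WT cells. When KO_vehicle 6 and KO_agonist 2 were left out, 6 of the 23 immediate-early genes were lower (median −0.19), with 2 of the 20 ERK feedback genes and 3 of the 21 inflammatory genes.

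Of 12 early genes taken from an earlier account of WT cells 0 were called in KO cells, and values are given for 11 of them. Cxcl2, a neutrophil chemokine, ran from 1.25 to 2.52 scaled units (median 1.75) in KO_vehicle and from 0.934 to 1.74 (median 1.54) in KO_agonist, at 9 to 22 reads per library, a log2 fold change of −0.24 ± 0.17 (adjusted p = 0.384). Lif, an interleukin-6 family cytokine, stood at 23.3 ± 4.05 and 22.3 ± 2.38 (−0.05 ± 0.12) and Areg, an EGF receptor ligand, at 17.0 ± 3.28 and 12.7 ± 2.32 (−0.41 ± 0.16, adjusted p = 0.0871). Tnfaip3 (−0.16 ± 0.10), Fosb (−0.26 ± 0.13), Dusp5 (−0.05 ± 0.14), Fos (−0.08 ± 0.13), Cxcl1 (−0.31 ± 0.15) and Il1a (0.01 ± 0.14, at 1 to 11 reads) were not called either. Txnip, an inhibitor of thioredoxin and glucose uptake that fell in WT cells, ran from 1129 to 1339 (median 1170) and from 738 to 1286 (median 1000) in KO cells, at −0.29 ± 0.12 (adjusted p = 0.127), and the chemokine scavenger Ackr3 stood at −0.29 ± 0.15. Without KO_vehicle 6 and KO_agonist 2, Areg (−0.48, adjusted p = 0.0494), Fosb (−0.40, adjusted p = 0.0296) and Txnip (−0.38, adjusted p = 0.0353) were called lower, under an omission that favours calls. The interaction was called for each of the 12 genes. They were picked for their response in WT cells, and the WT libraries enter the interaction, so these calls came largely from the choice.

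Actb, beta-actin, an SRF target that rose in WT cells, had 4101 to 4741 scaled units (median 4390) in KO_vehicle and 4038 to 4487 (median 4240) in KO_agonist, a log2 fold change of −0.04 ± 0.06 (adjusted p = 0.694). Of 21 SRF and YAP targets 2 rose and 1 fell (median −0.04), where 4.66% of all tested genes rose and 4.64% fell. Ajuba, a LIM protein of cell junctions, rose by 0.21 ± 0.06 and the exchange factor gene Arhgef17 by 0.17 ± 0.05, while the tissue factor gene F3 fell by 0.40 ± 0.12. Their calls were lost without 7, 9 and 10 libraries in turn, and without KO_vehicle 6, where Ajuba was lowest, the value of Ajuba was 0.13. F3 rose by 2.09 ± 0.12 in WT cells. This list had 2 genes higher and 3 lower without KO_vehicle 6 and KO_agonist 2.

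**Figure D4:**
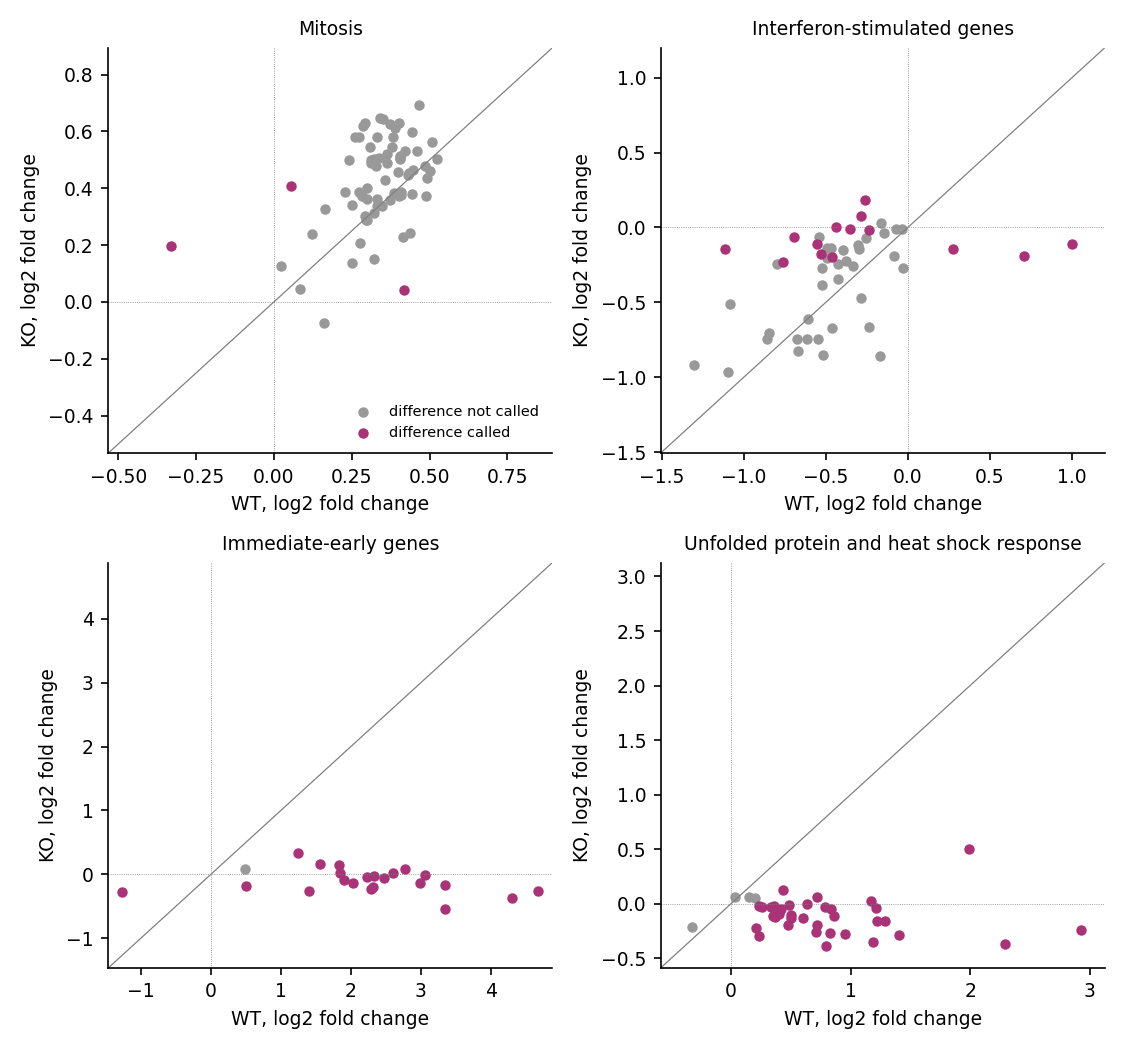
Log2 fold change with agonist in WT cells (horizontal axes) against KO cells (vertical axes) for the tested genes of 4 lists, on scales that differ between panels. Each point is a gene, purple where the difference between the genotypes was called, and the diagonal marks equal effects. The mitosis and interferon genes mostly lie in the quadrant of a shared direction, while the immediate-early and stress genes lie to the right near 0 on the vertical axis.

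Over the whole table, the effects in KO and WT cells, which share no library, correlated weakly across 11557 genes (Pearson r = 0.162, a description, since genes are not independent). Of the 539 genes that rose in KO cells, 258 (47.9%) also rose in WT cells, 45 (8.35%) fell and 236 (43.8%) were not called there. Of the 536 that fell, 250 (46.6%) also fell in WT cells, 126 (23.5%) rose and 160 (29.9%) were not called. In WT cells 28.6% of all tested genes rose and 28.6% fell. The WT and interaction counts rest on the main scaling, under which the totals of the WT groups differed. The interaction was called for 172 of the 539 genes (31.9%) and 245 of the 536 (45.7%), against 41.1% of all tested genes. Of the genes called in KO cells, the 10 with the smallest interaction p-values all fell in KO cells and rose in WT cells. Beside Fosl1, Ppp1r15a, Csf1, Slc3a2, Chac1 and the glucose transporter gene Slc2a1 (−0.25 ± 0.08 in KO, 1.35 ± 0.08 in WT cells), they were the initiation factor gene Eif1ad (−0.20 ± 0.04 and 0.68 ± 0.04), the proteasome subunit gene Psmd8 (−0.16 ± 0.04 and 0.71 ± 0.04), the chloride channel gene Clic4 (−0.17 ± 0.05 and 0.93 ± 0.05) and Msrb3, a methionine sulfoxide reductase (−0.14 ± 0.04 and 0.73 ± 0.04). In KO cells the call of Eif1ad held, and those of Psmd8, Slc2a1, Msrb3 and Clic4 were lost without 2, 9, 9 and 10 libraries in turn.

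Aqp2, the water channel gene on chromosome 15, ran from 59.9 to 107 scaled units with a median of 92.2 in KO_vehicle and from 49.4 to 90.8 with a median of 62.5 in KO_agonist. The groups overlapped, with KO_vehicle 6 the lowest vehicle library and KO_agonist 2 the highest agonist library. The log2 fold change was −0.40 ± 0.17 (adjusted p = 0.129), and −0.59 without that pair (adjusted p = 0.0160), whose removal was bound to deepen it. Of 17 principal cell genes 1 rose and 1 fell (median −0.12), near the 4.66% and 4.64% of all tested genes. Without KO_vehicle 6 and KO_agonist 2 the list had 1 higher and 6 lower, 5 of these among its 8 tested water and vasopressin genes. Tfcp2l1, a transcription factor of collecting duct cells, ran from 114 to 126 (median 116) and from 127 to 140 (median 136), without overlap, and rose by 0.18 ± 0.05 (adjusted p = 0.0215). It fell by 0.18 ± 0.05 in WT cells, and the effects differed (adjusted p = 8.59e-05). Elf5, another such factor, ran from 4.04 to 5.87 (median 4.96) and from 2.27 to 4.79 (median 3.18) and fell by 0.53 ± 0.13. Their calls were lost without KO_agonist 1 or 6 and without KO_agonist 1 or 4. Of the 6 intercalated cell genes, the vesicle channel gene Aqp6 fell (−0.47 ± 0.12) and the carbonic anhydrase gene Car12 rose (0.35 ± 0.10), calls lost without 2 and 9 libraries in turn, and without that pair 2 were higher and 2 lower. The part of cell make-up in the principal cell values was not tested.

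Zinc handling genes gave 0 calls among 19 tested, with log2 fold changes from −0.35 to 0.32 and a median of −0.01, where zinc was given to both groups. The comparison also gave 0 calls for 9 cAMP and CREB targets (median −0.19, from −0.43 to 0.28), 9 glucocorticoid and mineralocorticoid targets (median −0.05), 15 p53 targets (median −0.05, from −0.22 to 0.48) and 43 ribosomal protein genes (median −0.05). Over all tested genes only 4.66% rose and 4.64% fell, so lists this small would have few calls or 0 at that rate. The same holds for the small counts in the rest of this paragraph, except that of the lysosome and autophagy list. With 3 of 16 genes lower that list stood above the rate, and 0 of its calls held. Without KO_vehicle 6 and KO_agonist 2, 10.8% of all tested genes were called higher and 11.9% lower. The lists above with 0 calls then had 1 higher and 5 lower for zinc handling, 1 higher for cAMP, 1 lower for the steroid targets, 4 higher and 3 lower for p53 and 5 lower for ribosomal proteins. Counts near those shares are no result about a list. Of 29 glycolysis and hypoxia genes 2 fell, among them Slc2a1 (median −0.04). Of 23 oxidative phosphorylation genes 2 fell, the complex I gene Ndufb8 (−0.27 ± 0.08) and the complex IV gene Cox6c (−0.17 ± 0.05), with a median of 0.02. Of 16 lysosome and autophagy genes 3 fell (median −0.12): the cathepsin gene Ctsl (−0.28 ± 0.07), the lysosomal membrane gene Lamp2 (−0.23 ± 0.07) and the autophagosome gene Map1lc3b (−0.16 ± 0.05). Ciart, a repressor of the circadian clock, ran from 20.1 to 26.7 scaled units (median 23.3) and from 14.5 to 19.6 (median 18.3), without overlap, and fell by 0.36 ± 0.06 (adjusted p = 0.00732), the only call of 17 clock genes. It rose by 0.44 ± 0.06 in WT cells (interaction −0.80, adjusted p = 8.74e-08). The keratin Krt20 rose (0.35 ± 0.09) and Krt23 fell (−0.48 ± 0.14), and the unconventional cyclin gene Ccng2 rose (0.26 ± 0.07), the only call of 11 growth arrest genes. The same omission gave 10 of 16 lysosome and autophagy genes lower (median −0.19) and 1 higher, 5 glycolysis and hypoxia, 4 oxidative phosphorylation and 4 clock genes lower with 1 clock gene higher, and 2 growth arrest genes higher and 1 lower. Of the calls in this paragraph that of Ciart held, and those of Ctsl, Ccng2, Krt20, Cox6c, Ndufb8, Lamp2, Map1lc3b and Krt23 were lost without 1, 2, 3, 6, 7, 10, 10 and 10 libraries in turn.

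Gene length moved with the calls. The median length was 4857 bases for the genes that rose, 2680 for those that fell and 3719 for all tested genes. Among the shortest 2891 genes, of up to 2286 bases, 1.87% rose and 7.26% fell, and among the longest 2889, of 5786 bases or more, 6.75% rose and 2.08% fell. A library's long genes against its short genes, as the difference between the medians of their log2 deviations from the KO mean, stood at −0.09 to −0.03 in KO_vehicle 1 to 5 and 0.10 in KO_vehicle 6, and at −0.04 to 0.13 in KO_agonist, with KO_agonist 2 lowest at −0.04. With a length trend removed from every library, an alternative added after the data were seen, 521 genes rose and 503 fell, and 835 of the 1075 calls remained. The medians of the mitosis, interferon and lipid lists were then 0.44, −0.20 and 0.22. The median log2 fold change of the shortest genes was −0.06 and that of the longest 0.02, so removing a trend could move these 3 medians only a little. The part of gene length in the calls was not tested. Whether RNA quality differed between the libraries was not tested.

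**Figure D5:**
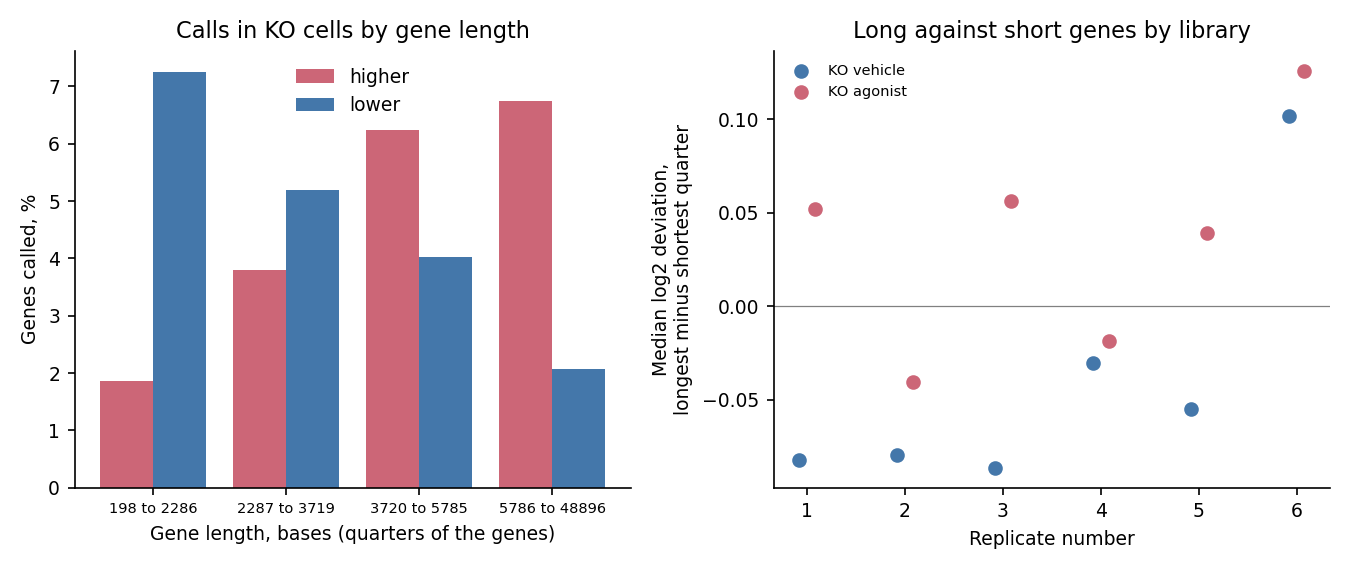
Share of tested genes called higher (red) and lower (blue) with agonist in KO cells by gene length in bases, in 4 bins of like size (left), and the median log2 deviation of the longest bin minus that of the shortest bin in each KO library (right), by replicate number. Calls shift from lower in short genes, with 7.26% lower and 1.87% higher, to higher in long genes, with 6.75% higher and 2.08% lower.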

How the data were processed

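RNA of 24 mpkCCD libraries, 6 per group, was measured, of which the 12 KO libraries carry the comparison. The deposited table holds signal values, normalised read counts divided by gene length, per the file headers and the values themselves. The submitters' processing notes name STAR 2.7.8a, DESeq, DESeq2 and GRCm39, without roles. No column lacked a sample (0 other columns). Values were multiplied by 92.1 for the whole table to give scaled units. The 11557 of 12224 rows whose mean over the 24 libraries reached 1 scaled unit were kept. Values as log2(scaled units + 0.5) were fitted in limma 3.58.1 (R 4.3.3, trend and robust settings) with a term per group over 24 libraries and 20 residual degrees of freedom, and p-values were adjusted by Benjamini-Hochberg over all rows, two-sided. Calls are genes whose adjusted p was under 0.05. A fold change on this scale understates the change of low genes. The design named edgeR only for whole counts, so it was not used.

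Whole reads were recovered from the values with at least 99.7% of values within 0.05 of a whole number, and limma's voom on them was an alternative. KO libraries held 29.8 to 51.9 M such reads. Libraries were not paired by replicate number in the main fit. Correlations of same-numbered deviations ran from −0.13 to 0.15, which does not exclude that libraries of equal number were handled together. The scripts were checked on simulated data.

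Members and the 34 gene lists were chosen with earlier results of these data known. Genes named were Gpr39, Aqp2 and Actb, the 12 highest and 12 lowest called changes without overlap and with a mean of at least 5 scaled units in a KO group, up to 3 called members per role of each list, the 10 called genes with the smallest interaction p and a set of early genes of WT cells. Of 134 such genes 121 are described, and the rest are not reported here. Alternatives were the pseudocount, the filter, the scaling, the moderation, the fit of KO libraries alone, a replicate block, voom, leaving out libraries and, added after seeing the data, a correction for gene length. Promoter windows came from RefSeq on GRCm38.p6, another build than the one the notes name.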

Additional observations from a re-analysis of the deposited data

Results flagged for a closer look

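In 24 of 242 groups of 6 KO libraries examined for the genes named, 1 library lay far from the other 5, where chance gives about 1 in 20. KO_vehicle 6 was that library for Nupr1 (341.0), Sult1d1 (136.8), Casp14 (43.57), Pole (38.21), Uhrf1 (106.0), Cenpe (30.6), Mylip (94.28), Ajuba (141.7), Dnajb9 (134.9), Xbp1 (137.5), Ndufb8 (273.2), Wnt10a (46.68), Ctsl (168.5), Lamp2 (104.1) and Ackr3 (61.37), in scaled units. KO_agonist 2 was that library for Lgr6 (3.812), Sapcd2 (9.529), Foxm1 (23.63), Srebf1 (124.7), Wnt10a (58.22) and Aqp6 (49.85). The others were KO_vehicle 4 for Irf7 (56.02), KO_agonist 5 for Ciart (14.53) and KO_agonist 6 for Csn3 (3.349).

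For 53 of the genes named, the agonist effect in KO cells differed from that in WT cells by the interaction test in limma. As the log2 effect in KO cells minus that in WT cells, the difference was negative for Cxcl2 (−6.36), Lif (−5.55), Areg (−5.53), Cxcl1 (−5.41), Tnfaip3 (−5.15), Il1a (−5.06), Fosb (−4.94), Fosl1 (−4.68), Dusp5 (−4.43), Csn3 (−2.82), Ppp1r15a (−2.67), F3 (−2.49), Csf1 (−2.28), Hmox1 (−2.15), Fos (−1.99), Actb (−1.72), Chac1 (−1.69), Slc2a1 (−1.60), Krt20 (−1.57), Herpud1 (−1.54), Hspb1 (−1.49), Krt23 (−1.34), Atf4 (−1.23), Slc3a2 (−1.22), Dnajb9 (−1.19), Clic4 (−1.10), Xbp1 (−0.97), Eif1ad (−0.88), Psmd8 (−0.88), Msrb3 (−0.86), Ciart (−0.80), Hsp90aa1 (−0.67), Serpinb9b (−0.66), Gclc (−0.61), Ctsl (−0.48), Gpr39 (−0.43), Lama5 (−0.31), Srebf2 (−0.28) and Lamc1 (−0.25). It was positive for Txnip (2.62), Ackr3 (1.84), Mylip (1.18), Cbr3 (1.00), Fzd4 (0.77), Sapcd2 (0.51), Tfcp2l1 (0.36), Cdc25b (0.36), Chaf1a (0.34), Ccng2 (0.33), Srebf1 (0.31), Ajuba (0.26), Map1lc3b (0.21) and Plcb3 (0.19).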

How the results depend on the processing

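Leaving out each KO library in turn gave 156 to 897 genes higher, 128 to 954 lower, 21 to 61 mitotic and 2 to 21 lipid genes higher and 2 to 17 interferon genes lower. Without KO_vehicle 6 and KO_agonist 2 together, 1244 genes were higher, 1379 lower and 22 lipid genes higher. When all libraries were brought to 1 common total, 318 genes were lower and 20 lipid genes higher, and with quantile scaling 21 lipid genes were higher. The replicate block, in a fit of the 12 KO libraries alone, gave 256 higher, 146 lower and 3 interferon genes, 2 stress genes and 6 xenobiotic genes lower, where that fit without the block had 9, 8 and 9, and 73 of the 107 called genes named were called under it, against 97 in that fit without the block. Of the libraries given agonist, only the sixth correlated best with its own number. The difference between KO and WT cells turned from −0.28 to 0.072 for Srebf2 with quantile scaling (adjusted p = 0.521) and from −0.25 to 0.030 for Lamc1 with the common total (adjusted p = 0.776). The cause was not tested for any of these, beyond the fewer samples of the fits that left libraries out. Of the 107 called genes named, 48 were called without KO_agonist 1 and 106 without KO_agonist 2, and 47 without each library in turn. Under voom, 575 genes were higher and 551 lower. Genes such as Cxcl2 and Il1a, with 9 to 22 and 1 to 11 reads per KO library, were too low for a small change to be detectable.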
